A study of Arabidopsis thaliana with 2 samples.

Results

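CYP710A2 (AT2G34490) and BAS1 (AT2G26710) are cytochrome P450 genes that were named under peaks of ATAF1-HA, a tagged NAC transcription factor of Arabidopsis thaliana. Both lie on chromosome 2, and each was chosen by its peak: a peak of the deposited list counted when the text of its overlapping annotations named the gene on that chromosome. This gave 2 of the list's 439 peaks, 1 per gene. Since the peaks chose the genes, their peak values are a description and were not tested.

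An antibody to the HA tag was used on rosette chromatin of a 35S:ATAF1-HA line in the Col-0 ecotype, in which a constitutive viral promoter overexpresses the tagged factor, and on that of wild-type Col-0 plants, which carry no tag. Both genotypes were grown on soil for 5 weeks, with 8 h of light per day, at 21 °C and 65% relative humidity. Each genotype gave 1 library, from 10 ng of precipitated DNA, so no value has a replicate and no difference between the genotypes was tested. The list gives 1 read count per peak without naming the library it was counted in, and the depth of either library is unknown.

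Cytochrome P450 enzymes are haem proteins that add oxygen to, or desaturate, small molecules, and plants use several of them along the route from membrane sterols to steroid hormones. CYP710A enzymes are sterol desaturases that act on the side chain of plant sterols: they make stigmasterol from sitosterol, and CYP710A2 can also make brassicasterol. Brassinosteroids are growth hormones made from campesterol, another sterol, by P450 enzymes of the CYP90 and CYP85 families. BAS1 (CYP734A1) stands at the other end of that route: it hydroxylates brassinolide and castasterone, the active brassinosteroids, and so inactivates them. ATAF2, a close relative of ATAF1, is known to act on BAS1 expression in seedlings, and whether ATAF1 does so is not addressed by these data.

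The CYP710A2 peak lay at chromosome 2, 14535977 to 14536009 on TAIR9, and had a deposited length of 32 bp. It held 258 reads, 139 on the forward strand and 119 on the reverse strand. Its deposited false discovery rate (FDR) was 0.0270%, and its deposited p-value was 0. In reads, this peak stood above the middle of the list: 301 of the 439 peaks (68.6%) had fewer and 133 had more, around a median of 215 reads. Among the 226 peaks with an FDR under 1% it stood just below the middle, with fewer reads in 110 (48.7%).

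The BAS1 peak lay at chromosome 2, 11380910 to 11380929, and had a deposited length of 19 bp. It held 185 reads, 90 on the forward strand and 95 on the reverse strand. Its deposited FDR was 4.99%, and its deposited p-value was also 0. Fewer reads were found in 171 peaks (39.0%) and more in 265, so BAS1 stood below the middle of the list by total reads. By reads per bp, a measure in which a short peak gains by construction, it stood well above the middle, with 343 of 436 peaks (78.7%) lower. Peaks with a deposited length of 0 also held reads, such as 204 on AT5G24390. The reads need not have been counted over the deposited length, so reads per bp need not be a read density.

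The CYP710A2 peak held 73 reads more than the BAS1 peak, a ratio of 1.39 (exact 95% interval 1.15 to 1.69). The interval covers counting error only, takes reads as independent molecules, and says nothing of variation between plants. On the forward strand the ratio was 1.54 (exact 95% interval 1.18 to 2.04). On the reverse strand it was 1.25 (0.949 to 1.66), an interval that includes a ratio of 1. Divided by the deposited length, the order turned round: CYP710A2 had 8.06 reads per bp and BAS1 had 9.74 reads per bp, a ratio of 0.828. The reads need not have been counted over that length, so this ratio need not compare read densities. BAS1 had the shorter peak, and 377 of the 439 peaks were longer than its 19 bp. CYP710A2 was nearer to the median length of 40 bp, with 284 peaks longer than its own.

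**Figure D1:**
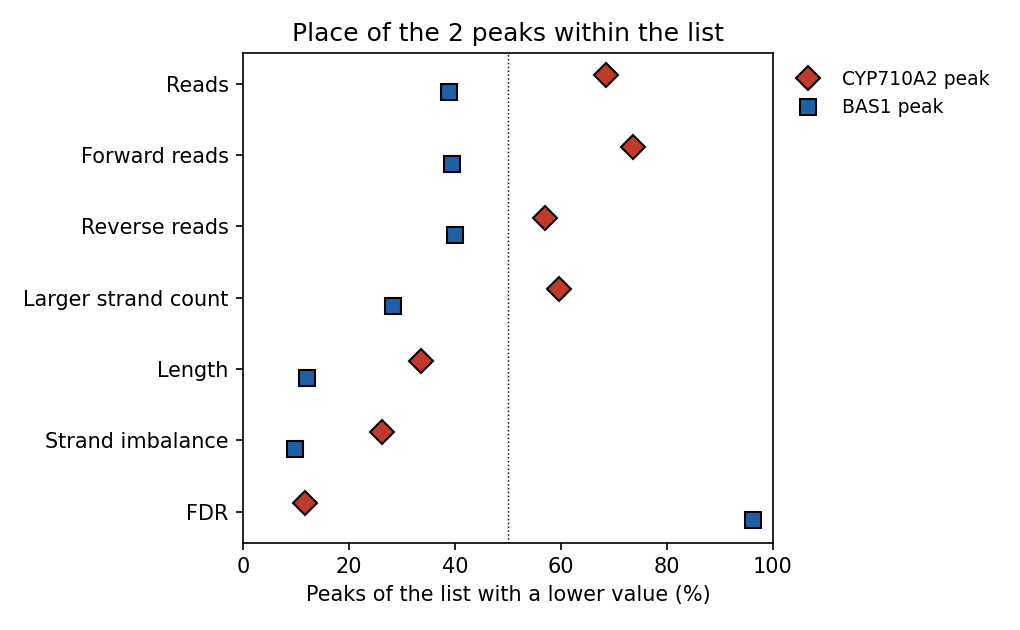
Place of the CYP710A2 peak (red diamonds) and the BAS1 peak (blue squares) among all 439 peaks, for the measures named on the left; the x axis gives the percent of peaks with a lower value, and the dotted line marks 50%. CYP710A2 lay above BAS1 in reads (68.6% against 39.0%) and far below it in FDR (11.6% against 96.4%), and both lay low in strand imbalance (26.2% and 9.79%).

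Both peaks were nearly balanced between the strands. Forward reads made up 53.9% of the CYP710A2 peak (Wilson 95% interval 47.8 to 59.9) and 48.6% of the BAS1 peak (41.5 to 55.8). These intervals overlap and both include 50%, so a difference in strand use was not detectable at this depth. The deposited strand imbalance, which is 0 where the strands hold equal reads, was 0.0775 for CYP710A2 and 0.0270 for BAS1, against a median of 0.165 over all peaks. A larger imbalance was found in 323 peaks than in the CYP710A2 peak, and in 395 than in the BAS1 peak. The p-value of 0 that both peaks carried was shared by 373 of the 439 peaks, so it does not rank them.

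**Figure D2:**
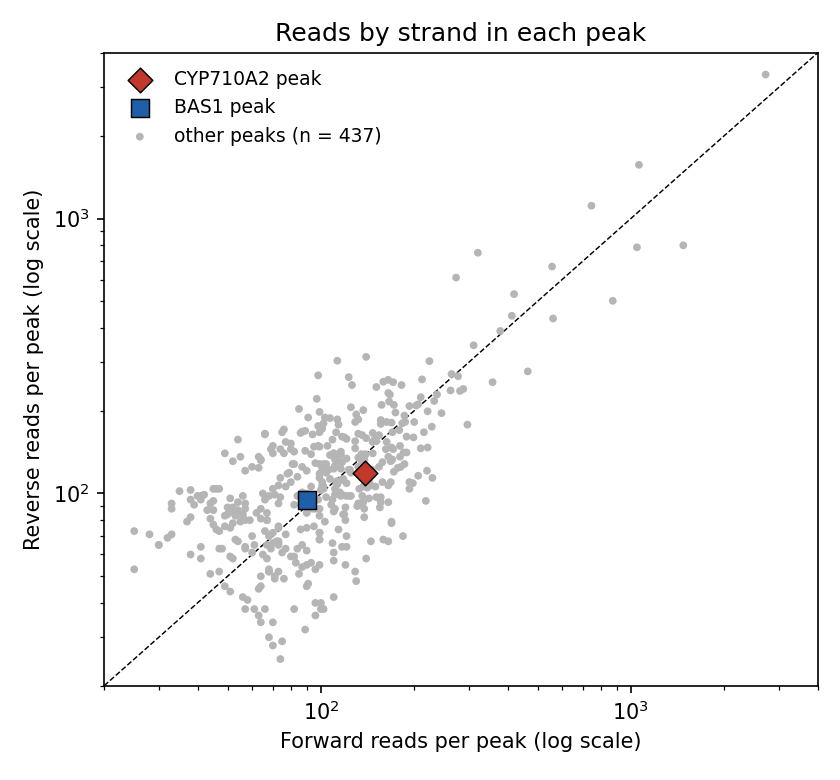
Forward (x axis) and reverse (y axis) reads per peak, both on log scales, for the CYP710A2 peak (red diamond), the BAS1 peak (blue square) and the other 437 peaks (grey); the dashed line marks equal reads on both strands. CYP710A2 had 139 forward and 119 reverse reads and BAS1 had 90 and 95, so both sit close to the line.

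Among reads, strand counts, length, strand imbalance and FDR, the last set both genes farthest apart by rank within the list. CYP710A2 had a lower FDR than 384 of the 439 peaks. BAS1 had the highest value of the list, 4.99%, with 15 other peaks, and was the 1 chromosome 2 peak with it. BAS1 thus lay at the edge of the list, and peaks beyond that value are not in it. Around CYP710A2, 3 of the 301 peaks with fewer reads had a lower FDR, and 85 of the 133 peaks with more reads had a higher one, so total reads alone did not order the list by FDR. No such count is informative for BAS1, since no peak of the list had a higher FDR.

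Peaks with like read totals had different FDR values near both genes. Besides CYP710A2, 4 peaks had 258 reads. Those on RLP6 (AT1G45616), on NIT4 (AT5G22300), which encodes a nitrilase, and at chromosome 4 from position 3070476, where no gene was named, had the FDR of CYP710A2. The other, on AT3G42945, had 0.647%. With 257 reads, the peak on AT5G63930 had an FDR of 1.62%, and the next higher total was 266 reads, in peaks on AT3G32383 and IDD4 (AT2G02080), each with 0.0447%. The total of 185 reads was shared by BAS1 with peaks on AT2G07737 and AT3G24506, whose FDR values were 1.60% and 2.40%. Just above it, peaks of 187 reads on GH9B12 (AT2G44570) and AT5G23430 had 2.12% and 4.52%. Just below it, both peaks of 184 reads, 1 of them on NHL8 (AT1G32340), had the same 4.99% as BAS1.

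The 16 peaks with the FDR of BAS1 held between 95 and 243 reads in total. The reverse count of the BAS1 peak, 95, recurred among them: 6 of the 16 had 95 reads in total, 7 (BAS1 included) had 95 reads on 1 strand, and 3 had neither. In the 4 peaks with the FDR of CYP710A2 the shared count was the total, 258 reads in each. The larger strand count of CYP710A2, 139, was found in none of the other 3. A count thus recurred at both FDR values, as a total or on 1 strand. The sources used here do not say how the FDR was computed.

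**Figure D3:**
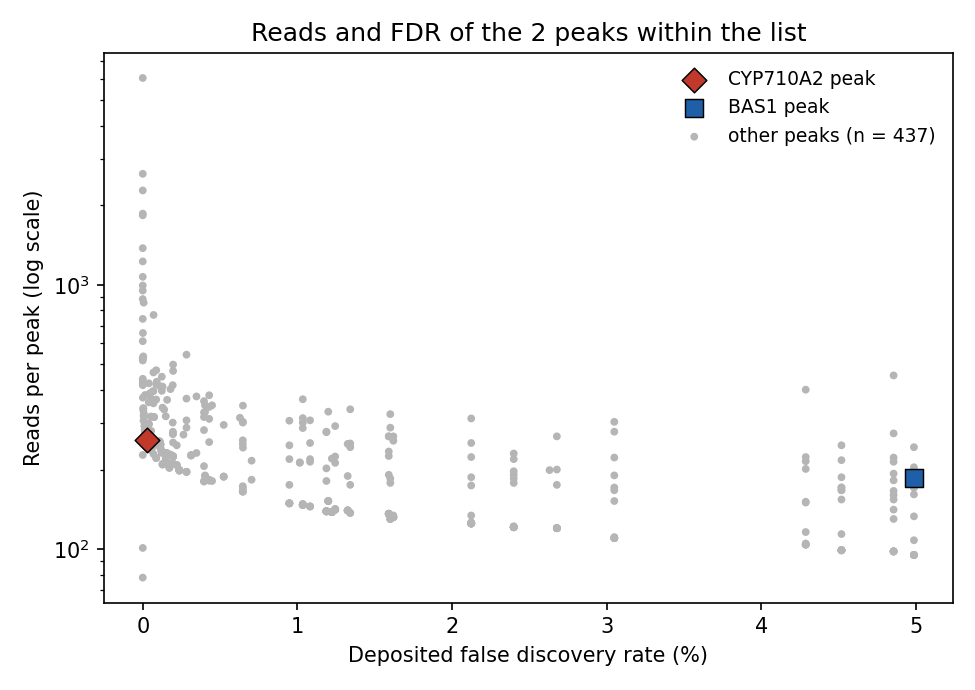
Reads per peak (y axis, log scale) against the deposited FDR in percent (x axis) for the CYP710A2 peak (red diamond), the BAS1 peak (blue square) and the other 437 peaks (grey). CYP710A2 lies at the left edge with 258 reads and 0.0270%, and BAS1 at the right edge with 185 reads and 4.99%, in a column of peaks that runs from 95 to 243 reads.

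The surroundings of both peaks differed. The nearest peak to CYP710A2 lay 141 kb away, on MEE23 (AT2G34790), with 221 reads and an FDR of 0.0870%. On the other side, 217 kb away, a peak of 120 reads named AT2G33845 and AT2G33847. The BAS1 peak had a nearer neighbour: 22.8 kb away, at chromosome 2, 11403756 to 11403771, a peak that named no gene held 536 reads with an FDR of 0.00352%. The next, on AT2G26780, was 41.2 kb away and held 141 reads with an FDR of 1.24%. For the whole list, the median distance to the nearest peak was 81.5 kb, with quartiles at 27.4 and 177 kb. Of the 439 peaks, 289 had a nearer neighbour than CYP710A2 and 97 had a nearer one than BAS1. Within 500 kb there were 3 other peaks around CYP710A2 and 4 around BAS1. These last included the peak on NTL8 (AT2G27300), a membrane-bound NAC factor gene, with 292 reads. The 2 peaks lay 3155 kb apart, with 7 other peaks between them.

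**Figure D4:**
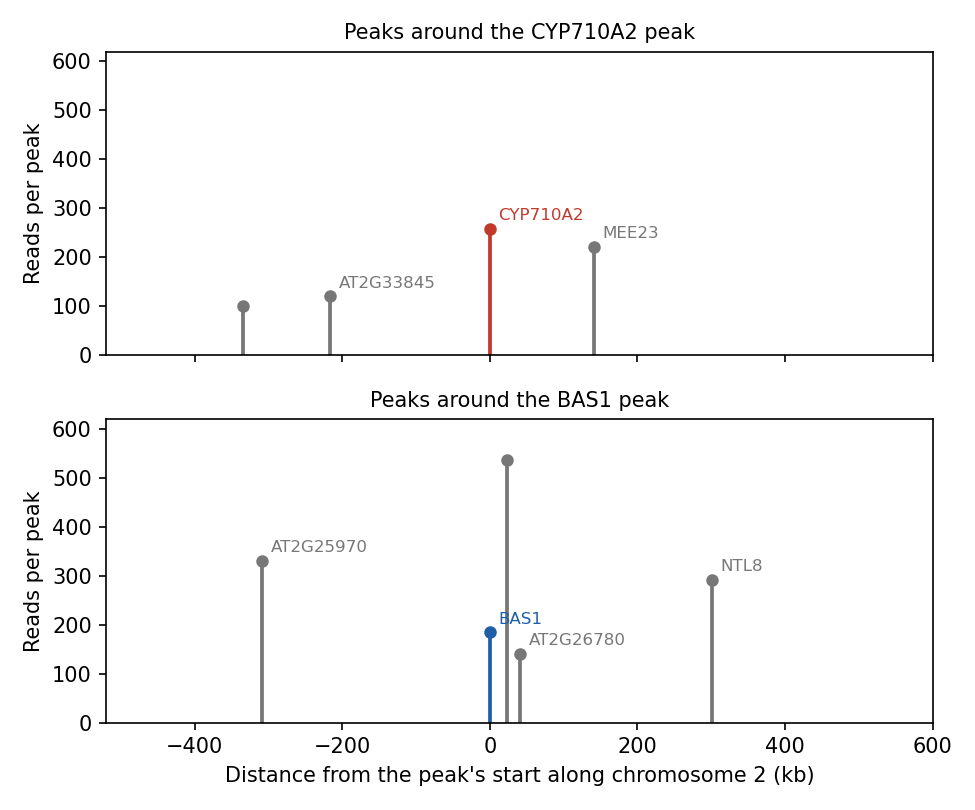
Peaks within 500 kb of the CYP710A2 peak (top, red) and of the BAS1 peak (bottom, blue), by distance between peak starts in kb (x axis) and reads per peak (y axis); other peaks are grey and carry the first gene they name, where they name one. No other peak lies within 50 kb of CYP710A2, and 2 lie within 50 kb of BAS1, with 536 and 141 reads.

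The list's neighbour columns named the same genes for both peaks, and both far away. For CYP710A2 the 5′ gene was AGP17, an arabinogalactan protein gene, at 4690592 bp, and the 3′ gene was AT2G35050 at 233698 bp. For BAS1 they were AGP17 at 1535525 bp and AT2G35050 at 3388778 bp. In total, 13 of the 82 chromosome 2 peaks listed this pair, and their distances imply 1 position each for AGP17 (9845385) and for AT2G35050 (14769707). The overlap column named genes between these positions for 10 of the 13 peaks, so the neighbour columns skip genes that the overlap column uses.

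In the gene order of the RefSeq table, CYP710A2 stands between AT2G34480 and CYP710A1 (AT2G34500), its closest family member by position. BAS1 stands between PID2 (AT2G26700), a gene named for its likeness to the kinase gene PINOID, and AT2G26720. No peak named any of these 4 neighbours. Neither did a peak name CYP710A3 (AT2G28850) or CYP710A4 (AT2G28860), which adjoin each other elsewhere on chromosome 2. Of the 4 CYP710A genes, 1 was thus under a peak, and it is the gene that was chosen by its peak, so nothing is read from this count. Over all 27444 nuclear protein-coding genes of the table, 288 were named under a peak, which is 1.05%. The sources used here do not say how reads that match several members of such a family were placed, and the part of such reads in the CYP710A2 count was not tested. The list gives no strand, exon, intron or untranslated region, so the position of each peak within its gene was not set.

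Other genes of the sterol and brassinosteroid routes were counted from 4 lists. The share of all nuclear protein-coding genes under a peak, 1.05%, is the background for each. Since CYP710A2 and BAS1 entered their lists already known to have peaks, their own counts carry no weight. In the sterol synthesis list CYP710A2 was the 1 of 25 genes under a peak. The other 24 included the sterol methyltransferase genes SMT1, SMT2 and SMT3, the cycloartenol synthase gene CAS1 and the demethylase gene CYP51G1. In the brassinosteroid inactivation list BAS1 was the 1 of 7. Those not named there included the P450 gene SOB7 (AT1G17060, CYP72C1), which acts beside BAS1, the glucosyltransferase genes UGT73C5 and UGT73C6, and BEN1. None of 7 brassinosteroid synthesis genes was named, DET2, DWF4, CPD, ROT3, CYP90D1, BR6OX1 and BR6OX2. None of 15 signalling genes was named either, among them the receptor gene BRI1, its partner BAK1, the kinase gene BIN2 and the transcription factor genes BZR1 and BES1. This count depends on the genes listed: the signalling list held BSK1 and not BSK3, a signalling gene that had a peak (described below). The exact 95% binomial limits for these counts of 0 were 41.0% for synthesis and 21.8% for signalling. Such limits treat genes as random draws, which the genes of a chosen list are not. The counts cover only the peaks of this list, and whether ATAF1-HA was absent from these genes was not tested.

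Cytochrome P450 genes were taken by name: 250 protein-coding genes of the table had a symbol or synonym that starts with CYP and a digit. Whether each of them encodes a P450 enzyme was not checked, and P450 genes without such a name were left out. Of these 250, CYP710A2 and BAS1 were the 2 under a peak, or 0.800%, which is close to the 1.05% of all protein-coding genes. Both stayed when peaks with a p-value above 0.05 were left out (background 1.02%). Among peaks with an FDR under 1%, CYP710A2 alone stayed, or 0.4% against a background of 0.492%. With genes within 1000 bp in the neighbour columns added, the count was still 2 (background 1.17%). Within 3000 bp it was 3, or 1.2% against a background of 1.33%. The third was CYP96A4 (AT5G52320), 2906 bp from a peak of 140 reads that overlapped AT5G52310. Since the neighbour columns skip genes, and name only distant ones for CYP710A2 and BAS1, these 2 settings can miss genes close to a peak. A brassinosteroid gene outside the 4 lists, picked after its value was seen, also had a peak. BSK3 (AT4G00710), a receptor-associated kinase gene of brassinosteroid signalling, held 243 reads, 95 forward and 148 reverse, at chromosome 4, 291287 to 291328, with the same FDR of 4.99% as BAS1. It had more reads than BAS1 and a larger difference between its strands.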

How the data were processed

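The authors deposited 1 peak list for both libraries, on TAIR9 per the submitters' processing notes. The sources used here name no aligner or peak caller and do not say how the Col-0 library entered. The file holds counts of reads per peak, in total and by strand, per the file headers; the FDR is a percent, the p-value is a probability whose test is not named, and the deposited strand imbalance is a fraction. Forward and reverse reads summed to the total in all 439 peaks, and the deposited length was end minus start in all. Annotation text was joined over 177 continuation lines, and names were looked up by locus, symbol or synonym on the peak's chromosome in a RefSeq gene table. That table was of another build (TAIR10.1) and was used only for names, gene order and gene types, which set the protein-coding genes of the background. In it, 352 of 354 loci matched, as did 54 of 55 listed genes. The members and lists were chosen with earlier results of these data known. Genes were named by a rule: both members, the neighbours of their peaks, CYP710A genes, SOB7, peaks next in reads, and list genes under or within 3000 bp of a peak; genes next in gene order or on adjacent peaks, and BSK3, were added after their values were seen, and further list genes are named as absent only. Alternatives changed the peaks ranked against, the FDR and p-value limits, the length correction, the strand and the neighbour distance. The Wilson and ratio intervals (95%) were checked on simulated counts and cover counting error only. The exact binomial limits of the list shares were not checked in this way. Values were computed with SciPy 1.17.1 and NumPy 2.4.6 in Python 3.11.15, and plots with Matplotlib 3.10.9.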

Additional observations from a re-analysis of the deposited data

How the results depend on the processing

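The ratio of CYP710A2 to BAS1 reads (1.39) ran from 1.25 to 1.54 by strand and reversed to 0.828 per bp of peak length, where the shorter BAS1 peak gains by construction. The share of peaks with fewer reads than CYP710A2 (68.6%) was 67.1% to 71.1% except among peaks with an FDR under 1%, where it was 48.7%; BAS1 is not among those peaks and had no value there. For BAS1 (39.0%) it was 34.1% on chromosome 2 and 78.7% by reads per bp, and 40.2% and 41.0% otherwise. Reads per bp leave out 3 peaks of length 0, which hold reads too, so this measure need not be a read density. With an FDR under 1%, BAS1 dropped out, so the brassinosteroid inactivation list had 0 genes under a peak. The genes taken by a CYP name had 1, against 0.492% of all protein-coding genes. Neighbours within 3000 bp gave 3 genes taken by a CYP name. No list count moved with neighbours within 1000 bp or with a p-value of at most 0.05. Because the neighbour columns skip genes, the neighbour settings can miss genes close to a peak, and an unmoved count says little. Motifs in promoters and protein comparisons were not run, since they need sequences not used here. No paired analysis was possible because the study has 1 library of each genotype. Depth per library is unknown, which limits each comparison to counts within 1 list.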
